A study of Mus musculus with 2 samples.

Results

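T and innate lymphoid cells were studied as they occurred among mesenchymal cells sorted from the mouse large intestine. A cell counted as a member when its barcode held at least 1000 UMIs (unique molecular identifiers, 1 per captured transcript), at least 500 genes and at most 10% mitochondrially encoded UMIs, and met a rule on raw UMIs. The rule asked for at least 1 UMI of Ptprc (CD45), at least 2 UMIs summed over Cd3e, Cd3d, Cd3g, Trac, Trbc2, Il7r and Nkg7, no UMI of the B cell genes Cd79a, Cd79b and Ms4a1, and at most 2 UMIs of the collagens Col1a1 and Col3a1. It found 553 members among 27768 filtered cells, 520 in the library named GF and 33 in the library named ff. The levels of the genes in the rule chose the cells and are given only as a description.

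T cells recognise antigen through a receptor built from alpha and beta or gamma and delta chains that signals through the CD3 complex. Naive and central memory T cells circulate through lymphoid tissue with the help of the chemokine receptor CCR7 and the sphingosine phosphate receptor S1PR1. Innate lymphoid cells (ILCs) lack an antigen receptor: NK cells and ILC1 kill targets or make interferon gamma, ILC2 make type 2 cytokines under the transcription factor GATA3, and ILC3 make IL-17 and IL-22. In the gut wall these cells live in the epithelium, the lamina propria and the lymphoid follicles.

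The ff library came from C57BL/6 mice and the GF library from Balb/c mice, both from large intestine, and each group had 1 library. The series' design text names colon of adult mice (older than 8 weeks) and germ-free mice; ff is not spelled out in the sources used here, and germ-free status is given only by the name GF. Strain, library and any difference in microbial status therefore cannot be told apart. The labels do not say how many mice were pooled, and with 1 library per group there is no replicate check on any difference between GF and ff.

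The sorted cells were labelled negative for CD45, EpCAM and CD31 and positive for gp38 (podoplanin, encoded by Pdpn). The members did not match that label. Every member had Ptprc RNA, which the rule required, and Pdpn RNA stood at 3.24 CPM (UMIs per 1000000 UMIs of the class; 5 UMIs) in GF and 16.8 CPM (3 UMIs) in ff, against 342 and 272 CPM in the fibroblasts of the same libraries. Fibroblast markers summed to 259 CPM in the GF members and 455 CPM in the ff members, and to 26184 and 25744 CPM in the fibroblasts. These markers include Col1a1 and Col3a1, which the rule capped in the members and which picked the fibroblasts. Part of this contrast was thus set by the choice of cells. The CXCL12 gene named in the series' title, Cxcl12, was at 16.2 and 22.5 CPM in the members, against 986 and 1007 CPM in the fibroblasts. Its receptor Cxcr4 was at 88.7 CPM in the GF members and 56.2 CPM in the ff members, and at 313 and 106 CPM in the B lineage cells.

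GF held 16388 barcodes with a median of 6147.5 UMIs and ff 13704 barcodes with a median of 8685 UMIs; filtering left 15066 and 12702 cells. Fibroblasts made up 60.6% of the filtered GF cells and 84.7% of the filtered ff cells. The libraries shared 55 barcodes, none of them a member's. Scrublet, a doublet caller, marked 780 GF cells (5.18%) and 550 ff cells (4.33%), and no member was among them. Intervals below are exact at the 95% level and cover counting error only.

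Members were 3.45% of the filtered GF cells (3.17% to 3.76%, Clopper-Pearson) and 0.260% of the filtered ff cells (0.179% to 0.365%). B lineage cells, picked by the matching rule on Cd79a, Cd79b and Ms4a1, numbered 472 in GF and 38 in ff, and myeloid cells 25 and 18. A sort that removes CD45-positive cells sets such shares, so they do not measure how many lymphocytes the tissue held. GF members had 1172 to 14687 UMIs, with a median of 2822.5, and ff members 2217 to 17229 with a median of 4727; GF fibroblasts were deeper, with a median of 7599.

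Cells around the thresholds of the rule were compared by a gene it did not use, Trbc1 (chr6:41538218-41539881, GRCm38), which encodes the other constant region of the T cell receptor beta chain. In GF, Trbc1 stood at 787 CPM in the 512 members with a sum of 3 or more, at 328 CPM in the 8 members at the minimum of 2, and at 19.7 CPM in 7 cells just outside with a sum of 1. Of the GF members, 422 had no collagen UMI, 86 had 1 and 12 had 2. Another 100 GF cells met every other condition but had 4 or more collagen UMIs; they held a median of 9620.5 UMIs and Trbc1 at 215 CPM. A further 58 GF cells lacked only Ptprc and had Trbc1 at 615 CPM, close to the 651 CPM of the 112 members with 1 Ptprc UMI, so some cells with T cell RNA lie outside the rule. In ff, the 2 members at the minimum sum of 2 had no Trbc1 UMI.

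The rule genes themselves described mostly T cells. In GF, Trbc2 was at 1129 CPM, Trac at 381 CPM, Cd3d at 574 CPM and Cd3e at 383 CPM; the IL-7 receptor gene Il7r was at 1039 CPM and the granule gene Nkg7 at 133 CPM. In ff, Trbc2 was at 601 CPM, Trac at 258 CPM, Cd3d at 365 CPM, Cd3e at 298 CPM, Il7r at 528 CPM and Nkg7 at 275 CPM. Genes of B cells, among them the 3 that the rule sets to 0, summed to 8.42 CPM in the GF members, genes of plasma cells to 33.0 CPM, genes of neutrophils to 1.94 CPM, and genes of mast cells had no UMI.

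A few members carried RNA of another cell type. Macrophage or monocyte markers summed to 458 UMIs in 34 of the 520 GF members, with 244, 58, 45 and 14 UMIs in the 4 highest cells, and to 481 UMIs in 15 of the 33 ff members, with 257, 176 and 14 in the 3 highest. One GF cell held 2820 of the 2825 erythroid UMIs. Cells with at least 10 UMIs of macrophage, endothelial or erythroid markers numbered 8 in GF and 3 in ff, and the main differences between GF and ff are also given without them. Whether they are doublets, took up free RNA or are cells of another type that met the rule was not tested. The 2 ff members at the minimum sum of 2, without Trbc1, held a median of 13900 UMIs.

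Within GF, the members were set against the B lineage cells of the same library, which passed the same sort and had a similar median depth (2447 UMIs). Of 2027 genes with at least 200 UMIs over both classes, 219 were at least 2-fold higher in the members (10.8% of those tested) and 176 at least 2-fold lower (8.68%), on the scale log2(CPM + 1). The median over all tested genes was 0.10. Without the cells that carried other types' RNA the counts were 216 and 177 of 1971 genes.

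Genes of antigen receptor signalling were among the largest differences, though the classes were chosen by genes of the same complexes. Trbc1 was at 780 CPM (736 to 825) in the members and 0.742 CPM, or 1 UMI, in the B lineage cells, a 1051-fold difference with a counting interval of 188 to 41544. The adaptor gene Fyb stood at 648 CPM against 0.742 CPM. Prkcq, the kinase of the T cell synapse, was at 155 CPM against none, at least 69.8-fold higher when the absent gene is set to 3 UMIs over the class. All 5 measured genes of the receptor and its proximal signalling outside the rule were higher, with a median log2 ratio of 2.76.

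Co-stimulatory genes showed the same contrast, with 4 of 4 measured genes higher and a median log2 ratio of 5.76. Icos, an inducible co-stimulator, was at 288 CPM in the members and had no UMI in the B lineage cells, at least 129-fold higher. Cd28, the main co-stimulator of naive T cells, was at 509 CPM against 5.93 CPM. Among transcription factors, 6 of 7 measured genes were higher. Tcf7, which sets up T cell identity, was at 305 CPM against none (at least 137-fold), Bcl11b, a factor of T cell commitment, at 160 CPM against none (at least 71.9-fold), and Ikzf2 (Helios) at 155 CPM against none (at least 69.8-fold). Bach2, a factor shared by B and T cells, stood at 104 CPM against 151 CPM and was not 2-fold different.

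Cytokine receptors differed as well. Ifngr1, a chain of the interferon gamma receptor, was at 1048 CPM in the members and 111 CPM in the B lineage cells (9.48-fold, 8.01 to 11.3). Il2rb, the shared IL-2 and IL-15 receptor chain, was at 189 CPM against 1.48 CPM, or 2 UMIs (127-fold, 35.0 to 1057). Il4ra, the IL-4 receptor chain, was at 315 CPM against 54.2 CPM (5.81-fold). The common gamma chain gene Il2rg, used by both lineages, was at 228 CPM against 259 CPM.

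Other genes named by rank included Emb (embigin, a membrane glycoprotein) at 1393 CPM against 5.19 CPM, Ramp3 at 375 CPM against none (at least 168-fold), Ms4a4b at 1125 CPM against 10.4 CPM and S100a4 at 245 CPM against 1.48 CPM. Ccl5, a chemokine of cytotoxic and memory lymphocytes, reached 718 CPM, but its 1109 UMIs came from 55 of the 520 cells. Xcl1, a chemokine that attracts cross-presenting dendritic cells, had 202 UMIs in 34 cells. These chemokines thus marked a minority of the members and had no UMI in the B lineage cells.

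Several of the genes most reduced in the members are known from B cells. Pax5, which fixes B cell fate, had no UMI in the members and stood at 354 CPM in the B lineage cells, at least 182-fold lower. Fcmr, the IgM Fc receptor gene, had none against 820 CPM (at least 422-fold lower). Ebf1, an early B cell factor, was at 7.12 CPM against 1542 CPM (217-fold lower, 121 to 434). Scd1, a fatty acid desaturase gene and not one of B cell identity, was at 0.648 CPM, or 1 UMI, against 588 CPM. Genes of MHC class II presentation were lower for 5 of 5 measured members, with a median log2 ratio of -4.09, while none of 5 MHC class I genes differed 2-fold. In ff, the direction was the same for the 15 higher and 8 lower genes named by rank.

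**Figure D1:**
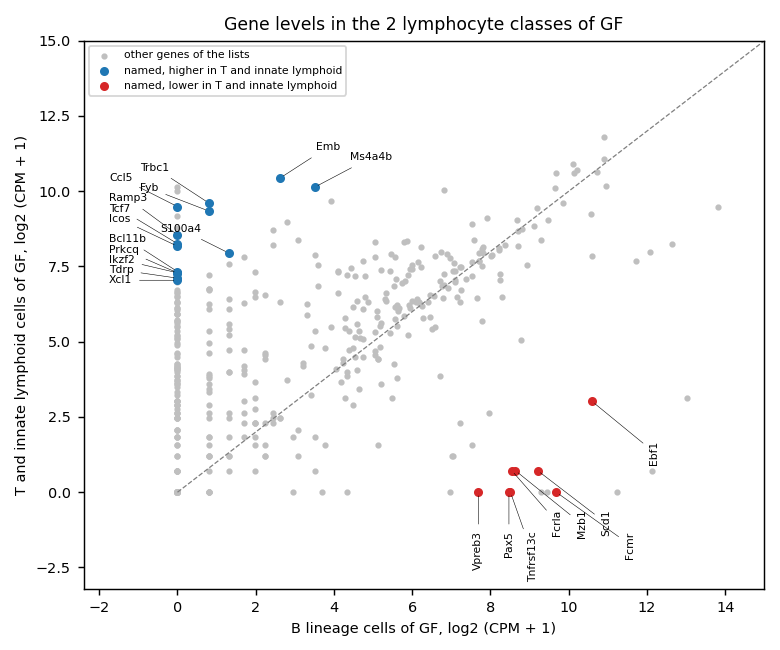
Each point is a gene of the fixed lists or a gene named by rank, in GF, with log2(CPM + 1) in the B lineage cells on the horizontal axis and in the T and innate lymphoid cells on the vertical axis; genes named by rank are coloured, apart from those not reported here, and the dashed line marks equal levels. Trbc1 (780 against 0.742 CPM) lies far above the diagonal and Ebf1 (7.12 against 1542 CPM) far below it.

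Lineage classes were read from cells with a UMI of the defining genes. Of the GF members, 111 (21.3%) had Cd4 and no Cd8a or Cd8b1, 72 (13.8%) had Cd8a or Cd8b1 and no Cd4, and 4 (0.769%) had both. Genes of the gamma-delta receptor (Trdc, Tcrg-C1, Tcrg-C2, Tcrg-C4) had a UMI in 51 GF cells (9.81%), and 68 cells (13.1%) had no UMI of Cd3e, Cd3d or Cd3g. Of the ff members, 9 (27.3%) fell in the CD4 class, 2 (6.06%) in the CD8 class and 10 (30.3%) had a gamma-delta UMI, and 12 (36.4%) had no CD3 UMI. Most GF members had no UMI of any co-receptor, so these shares are those of detection at this depth.

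Depth mattered to these shares. When every cell was thinned to 1000 UMIs, the CD4 class held 9.42% of GF and 9.09% of ff members, the CD8 class 8.85% and 3.03%, the gamma-delta class 5.77% and 12.1%, and cells without CD3 28.7% and 42.4%. No B lineage cell of either library fell in the CD4, CD8 or gamma-delta class (0 of 472 and 0 of 38). Of the fibroblasts, 0.0438% to 0.405% in GF and 0.0650% to 0.167% in ff did. Both classes were picked without any UMI of the rule's T genes, which leaves out cells with such stray RNA. These values may therefore understate the background. A cell without a CD3 UMI need not be innate, and 23 of the 68 such GF cells had a gamma-delta UMI.

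Clustering the 520 GF members by the Leiden method at resolution 1 gave 10 clusters. Since the clusters were formed from the same genes, the levels below describe them and test nothing. In 8 clusters with 414 cells (79.6%, 75.9% to 83.0%), the genes of naive or central memory T cells summed to 7678 CPM. In the other 2, clusters 1 and 7 with 106 cells (20.4%), they summed to 1839 CPM. The GF members thus held a large pool rich in this list and a small one poor in it, grouped this way after the levels were seen.

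Within the large pool, the cluster of 83 cells led by Ccr9, the receptor for the gut chemokine CCL25, also held most CD8 RNA. Ccr9 was at 114 CPM there and 5.39 CPM in the other members, Cd8a at 170 against 10.0 CPM and Cd8b1 at 325 against 32.4 CPM. In it 52 of 83 cells (62.7%) were in the CD8 class. The rest of the pool split by small differences, such as Cd5, an inhibitory receptor of T cells, in a cluster of 59 cells and Dapl1 in another of 59. A cluster of 41 cells had the interferon-stimulated gene Ifi27l2a at 594 against 178 CPM. A cluster of 30 cells was led by Ccl21a, but all 42 of its UMIs came from 1 cell.

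Cluster 1 (65 cells, 12.5%) was led by Xcl1 at 811 CPM, Fcer1g at 911 CPM and the NK receptor gene Ncr1 at 277 CPM. Of its cells, 45 (69.2%) had no CD3 UMI and 30 (46.2%) had a gamma-delta UMI. It also held Il1b, from 4 cells, and Cd74, from 11 cells, and it was left unnamed. Granule genes were concentrated here: Gzma, the granzyme A gene, was at 369 CPM and Gzmb, the granzyme B gene, at 277 CPM, and genes of cytotoxic granules summed to 3067 CPM against 56.4 to 383 CPM in the other clusters.

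Cluster 7 (41 cells, 7.88%) joined genes of ILC2 and of regulatory T cells. Gata3 was at 848 CPM, Il1rl1 (the IL-33 receptor) at 188 CPM, Hs3st1 at 458 CPM and Foxp3, the factor of regulatory T cells, at 188 CPM. All 11 ILC2 markers and 7 of 8 regulatory T cell markers were at least 2-fold the level in the other members, where 19.5% of all genes with at least 3 UMIs in the cluster were. It too was left unnamed. Its cells without a CD3 UMI numbered 11 of 41 (26.8%).

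At resolution 1.5, with 14 clusters, cluster 7 split into 27 and 14 cells, and cluster 1 stayed largely together. A cluster of 60 cells, all from cluster 1, had all 9 NK or ILC1 markers at least 2-fold higher. Of all genes with at least 3 UMIs in the cluster, 23.4% were. Other lists were raised there too, at 6 of 6 Th1-type, 7 of 9 intraepithelial-type and 6 of 9 gamma-delta T cell markers. So were 5 of 5 erythroid markers, since the cluster held the 1 cell rich in erythroid UMIs. With markers of several types raised, the cluster was left unnamed. In it Ncr1 was at 333 CPM, Ccl5 at 5040 CPM and Gzma at 445 CPM. Of the 60 cells, 30 had a gamma-delta UMI, 41 had no CD3 UMI, and 17 met both conditions. Cd3e was at 164 CPM, so CD3 RNA was present, but which of the cells were T cells was not tested. A cluster of 35 cells was regulatory T-like: Foxp3 was at 217 CPM, Ctla4 at 452 CPM and Tnfrsf4 (OX40) at 565 CPM, and no cell lacked CD3 UMIs.

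A cluster of 14 cells was ILC2-like. Gata3 stood at 1632 CPM there, Hs3st1 at 1402 CPM, the neuropeptide gene Calca at 1264 CPM and Ccl1 at 827 CPM. No CD3 UMI was found in 11 of the 14 cells (78.6%), though 8 cells (57.1%) had a gamma-delta UMI. The last cluster, of 7 cells, was led by macrophage genes (Il1b, Lyz2 and C1qa) at a median of 6134 UMIs. The cytokine gene Il13 stood at 437 CPM in the ILC2-like cluster. It had no UMI in the cluster of 60 cells or the regulatory T-like cluster, but all its GF UMIs came from 2 cells.

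**Figure D2:**
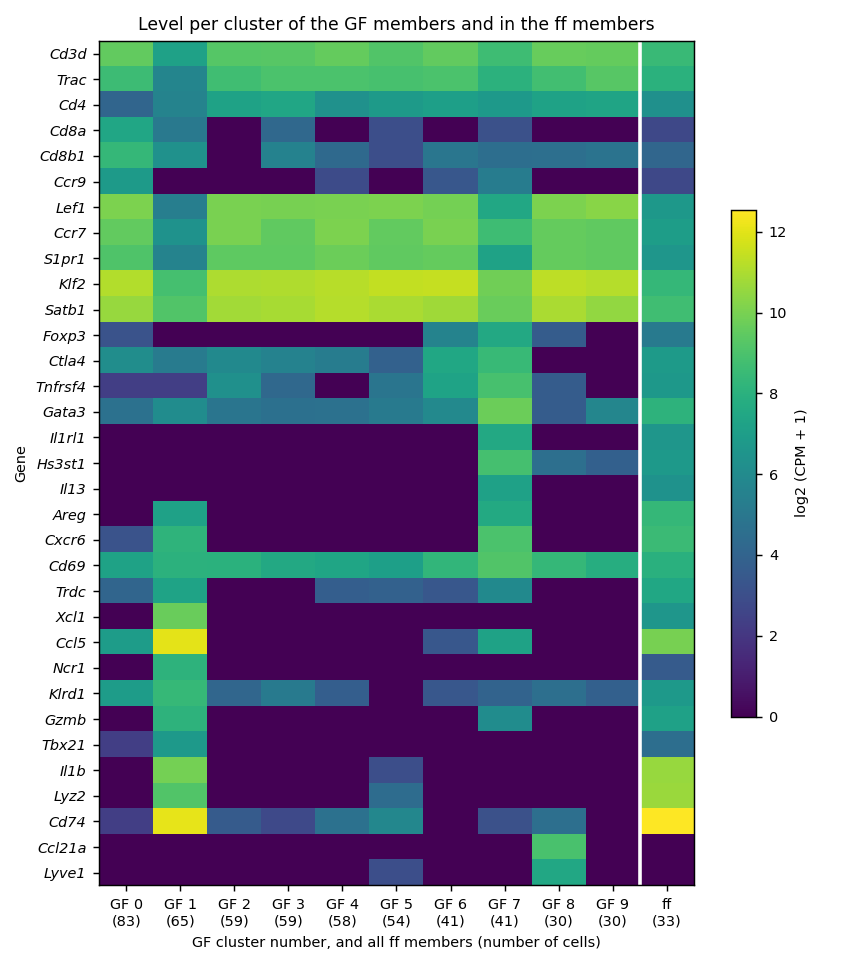
Rows are genes, columns the 10 clusters of the GF members at resolution 1 and the 33 ff members, and colour gives log2(CPM + 1). Lef1 and Klf2 are low in clusters 1 and 7, Xcl1 and Ncr1 are high in cluster 1, and Gata3 and Il1rl1 are high in cluster 7.

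The GF and ff members were then compared. Of 1176 genes with at least 20 UMIs expected in the smaller class, 150 were at least 2-fold higher in GF (12.8% of those tested) and 94 at least 2-fold lower (7.99%), with a median log2 ratio of 0.17 over all of them. Without the cells that carried other types' RNA, 106 were higher and 63 lower of 923. The difference compares 2 libraries of unequal size, and ff rests on 33 cells.

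Genes of naive or central memory T cells made up the clearest difference. Of 8 measured genes, 7 were at least 2-fold higher in GF, with a median log2 ratio of 2.49 (2.30 without the cells that carried other types' RNA). The list summed to 6232 CPM in GF and 1325 CPM in ff, a 4.70-fold difference (4.13 to 5.37; 4.20-fold without those cells). In the B lineage cells the list was also higher in GF, at 3257 against 1514 CPM (2.15-fold, 1.92 to 2.42), and in fibroblasts, which express some of its genes, it was at 2208 and 2364 CPM. Several of its genes are thus shared with B cells, and how far a difference common to both lineages enters was not tested. The B lineage classes also differed in make-up, with plasma cell genes at 13380 CPM in GF and 62383 CPM in ff. What this adds to the B lineage values here and below was not tested.

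Lef1 (chr3:131110471-131224356, GRCm38), a factor that acts with Tcf7 in naive T cells, was at 821 CPM in GF (776 to 868) and 101 CPM in ff (59.9 to 160). It was 8.12-fold higher (5.12 to 13.8), with a UMI in 381 of 520 GF cells and 8 of 33 ff cells. The B lineage cells had 14.1 CPM in GF and no UMI in ff. Klf2 (chr8:72319033-72321656), which keeps naive T cells quiescent and switches on S1pr1, was at 1903 CPM against 326 CPM (5.84-fold, 4.51 to 7.72), and at 1099 against 627 CPM in the B lineage cells.

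The homing receptors of the list were also higher in GF. Ccr7, the receptor that guides cells into lymph nodes, was at 692 CPM in GF and 124 CPM in ff (5.60-fold, 3.68 to 8.98). S1pr1, which lets cells leave them, was at 546 CPM against 95.5 CPM (5.72-fold, 3.55 to 9.86). In the B lineage cells these genes stood at 586 against 183 CPM and 238 against 101 CPM. Tcf7 was 3.02-fold higher in the GF members, at 305 against 101 CPM, and the chromatin organiser gene Satb1 3.72-fold, at 1546 against 416 CPM. Igfbp4, at 148 against 107 CPM (1.39-fold, 0.870 to 2.35), was the measured gene of the list that was not 2-fold higher.

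Cell by cell, the list was spread over most GF members. After thinning to 1000 UMIs, the median GF cell held 7 UMIs of it and the median ff cell none, and 436 of 520 GF cells (83.8%) but 6 of 33 ff cells (18.2%, 6.98% to 35.5%) held at least 3. Without thinning, 493 GF cells (94.8%) and 23 ff cells (69.7%) did, in libraries whose members had median depths of 2822.5 and 4727 UMIs. The GF value therefore does not rest on a few cells, and ff has some such cells.

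**Figure D3:**
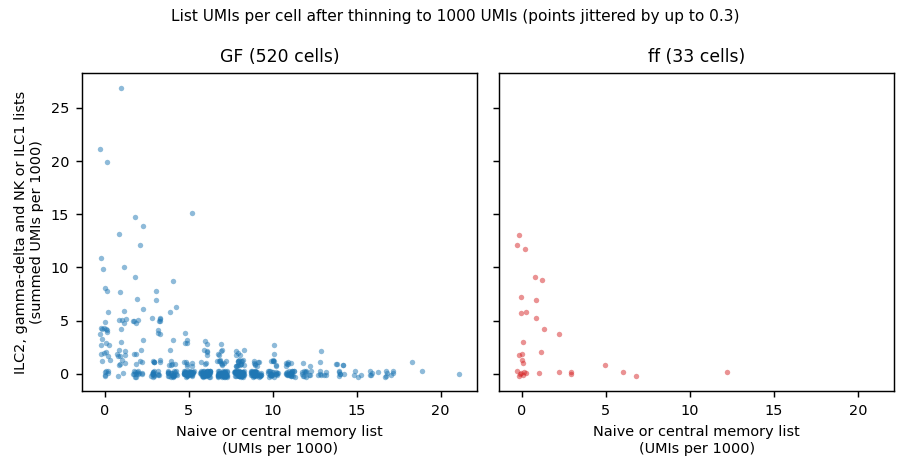
Each point is 1 member thinned to 1000 UMIs, with UMIs of the naive or central memory list on the horizontal axis and UMIs of the ILC2, gamma-delta T and NK or ILC1 lists on the vertical axis, GF and ff in separate panels. The GF cells lie mostly to the right (median 7 UMIs of the naive list) and the ff cells mostly at the left (median 0).

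Genes named by rank as higher in GF included Itga6, the integrin alpha 6 gene, at 188 CPM against 5.62 CPM, or 1 UMI (33.6-fold, 5.98 to 1330). Rflnb was at 414 CPM against 28.1 CPM (14.7-fold, 6.28 to 45.5), and the complement regulator gene Cd55 at 153 CPM against 11.2 CPM (13.6-fold, 3.73 to 113). Tdrp, Rras2, Actn1, Tnrc6a and Adk stood between 134 CPM (Rras2) and 172 CPM (Adk) in GF, and between 11.2 CPM (Tdrp and Rras2) and 22.5 CPM (Adk) in ff. Some of these differences were not confined to the members. Smc6, a chromosome maintenance gene, was at 598 CPM against 73.0 CPM, and at 1527 against 164 CPM in the B lineage cells. Tpm3-rs7 was at 163 CPM against 5.62 CPM, and at 179 against 2.30 CPM in fibroblasts.

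The list of ILC2 markers was lower in GF, at 588 CPM against 1887 CPM in ff (3.21-fold lower, 2.82 to 3.64; 3.59-fold without the cells that carried other types' RNA). Of its 2 measured genes, 1 was at least 2-fold lower: Gata3 was at 107 CPM (91.2 to 124) against 275 CPM (204 to 364), 2.58-fold lower. Without those cells Gata3 was 3.15-fold lower but fell under the measurement minimum, so that no measured gene of the list was then 2-fold lower. Rora, a factor needed by ILC2, stood at 294 against 562 CPM (1.91-fold lower, 1.52 to 2.38). After thinning, 28 GF cells (5.38%) and 10 ff cells (30.3%) held at least 3 UMIs of the list, and without thinning 60 (11.5%) and 18 (54.5%).

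Lists of transcription factors and of adhesion genes held no direction shared by all their measured genes. Of 8 measured lymphoid transcription factors, 2 were at least 2-fold higher in GF and 3 lower (median log2 ratio -0.89). The transcription factor list as a whole was 1.31-fold lower in GF (1.20 to 1.43), and 1.40-fold lower (1.27 to 1.54) without the cells that carried other types' RNA. Of 5 measured genes of adhesion and tissue retention, 1 was higher and none lower (median log2 ratio -0.01). The adhesion and retention list as a whole was 1.15-fold lower in GF (1.12-fold, 0.964 to 1.29, without the cells that carried other types' RNA). The next 4 genes were chosen after their values were seen and stand for no group. Id2, a factor required by all ILCs, was at 203 CPM against 853 CPM (4.21-fold lower, 3.45 to 5.13). Cxcr6, a receptor of resident lymphocytes, was at 91.3 CPM in GF, from 42 of 520 cells, and 371 CPM in ff, from 14 of 33 cells (4.06-fold lower, 2.98 to 5.47). Maf, a factor of interleukin-10-producing and gamma-delta T cells, was at 88.7 against 343 CPM (3.86-fold lower). Areg, the tissue repair factor amphiregulin, was at 40.1 CPM from 12 cells against 326 CPM from 10 cells. Without the cells that carried other types' RNA, Id2 was 4.38-fold, Cxcr6 4.34-fold, Maf 4.61-fold and Areg 8.03-fold lower in GF.

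The gamma-delta T cell list was at 80.9 CPM in GF and 500 CPM in ff (6.17-fold lower in GF, 4.65 to 8.17; 7.43-fold without the cells that carried other types' RNA). Of the 89 ff UMIs, 45 came from 1 cell and 22 from another, and with the UMIs of the highest cell taken out of each library the list stood at 76.4 CPM in the GF members against 247 CPM. Trdc had a UMI in 25 GF cells and 4 ff cells. Cd163l1, a scavenger receptor gene of IL-17-producing gamma-delta T cells, had no UMI in GF and 10 UMIs in 2 ff cells. The regulatory T cell list was at 594 CPM against 1022 CPM (1.72-fold lower, 1.46 to 2.02; 2.11-fold without the cells that carried other types' RNA), but Foxp3 itself was at 21.4 CPM against 33.7 CPM with overlapping intervals (14.7 to 30.0 and 12.4 to 73.3). The genes of cytotoxic granules were at 613 against 915 CPM (1.49-fold lower, and 1.83-fold without those cells). They include Nkg7, a gene of the rule, so this fold is only a description. Those of NK receptors were at 315 against 505 CPM (1.61-fold lower, and 1.80-fold without those cells). Gzma was found in 12 of 520 GF cells, with 41 of its 100 UMIs in 1 cell, and in none of the 33 ff cells. So few ff cells cannot show whether a gene this rare is absent.

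The cytokine list was 2.74-fold lower in GF (521 against 1426 CPM; 3.14-fold without the cells that carried other types' RNA), with a UMI in 297 of 520 GF cells and 29 of 33 ff cells. Of its 2 measured genes, Ltb (lymphotoxin beta) at 275 against 219 CPM and Tgfb1 at 133 against 140 CPM, neither differed 2-fold. The chemokine list was 2.24-fold lower (967 against 2167 CPM; 2.70-fold without those cells), from 73 GF cells and 14 ff cells. Single cytokine and chemokine genes with large differences came from few cells. Ccl1 accounted for much of the chemokine difference, at 23.3 CPM from 6 cells in GF and 853 CPM from 4 cells in ff. Csf2 (GM-CSF) was at 18.1 CPM from 9 cells against 208 CPM from 6 cells, Il13 at 12.3 CPM from 2 cells against 84.2 CPM from 6 cells, and Il5 at 5.83 CPM from 1 cell against 152 CPM from 2 cells. Il17a had UMIs in 1 cell of each library, and Ifng, the interferon gamma gene, had 8 UMIs in GF and 2 in ff. With so few cells, these levels describe the cells caught in each library.

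**Figure D4:**
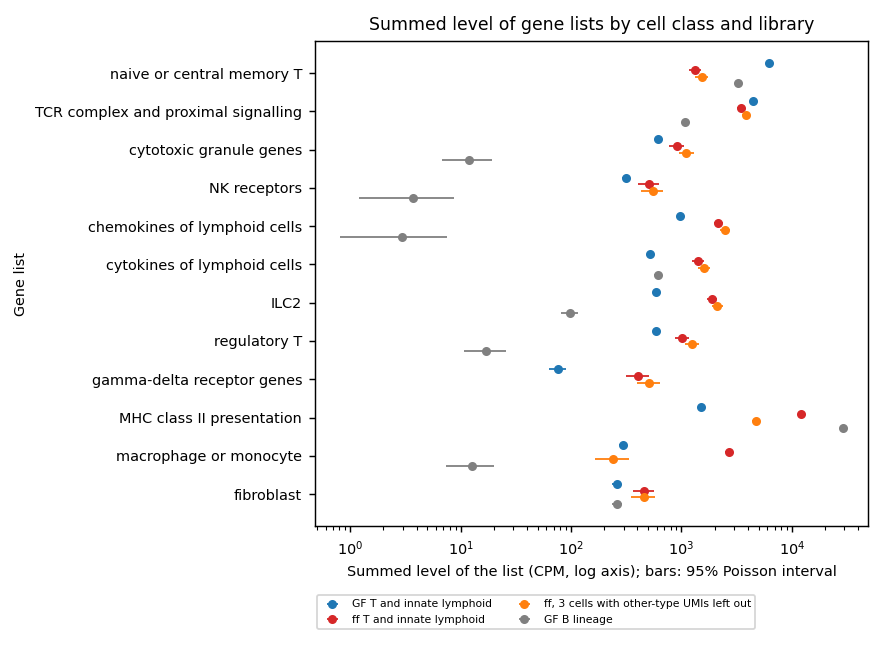
Summed levels of selected gene lists in CPM on a log axis, with exact Poisson intervals, in the GF members, the ff members, the ff members without the 3 cells that carried other types' RNA, and the GF B lineage cells. The naive or central memory list is highest in the GF members (6232 CPM), and the ILC2 list is higher in the ff members (1887 CPM) than in the GF members (588 CPM). The lists of the T cell receptor complex, cytotoxic granules and fibroblasts include genes of the rule.

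Among the 12 genes named by rank as lower in GF, several came from a few ff cells with macrophage RNA. Retnla, a product of alternatively activated macrophages, had 449 UMIs in ff, all in 1 cell, and none in GF. Apoe had 425 of its 427 ff UMIs in 1 cell and 264 of its 352 GF UMIs in 1 cell. Lyz2, the lysozyme gene of macrophages, was at 92.6 CPM in GF and 1640 CPM in ff, where 245 and 44 UMIs came from 2 cells. Il1b was at 160 against 1561 CPM, with 112, 88 and 77 UMIs in 3 ff cells. With a sum of the T genes of at least 3, which leaves 31 ff cells, Lyz2 and Apoe were higher in GF instead, at log2 ratios of 1.39 and 2.04.

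Genes of MHC class II presentation, which mouse T cells scarcely express, were lower in GF for 4 of 4 measured members, and for 3 of 3 without the cells that carried other types' RNA. Cd74, the invariant chain gene, was at 703 CPM in GF and 5986 CPM in ff (8.51-fold lower), and 3 ff cells held 394, 365 and 306 of the UMIs. Without the cells that carried other types' RNA it was at 252 against 2158 CPM, and 306 of the 307 ff UMIs then left came from 1 cell. H2-Ab1, an MHC class II beta chain gene, was at 253 against 2162 CPM (8.56-fold lower; 11.7-fold without those cells). Only 1 ff cell with at least 10 UMIs was then left for each of H2-Ab1, H2-Aa and H2-Eb1. Dendritic cell markers, at 44.7 CPM in the GF members and 197 CPM in the ff members, were not part of that exclusion. Afterwards 2 GF cells and 1 ff cell with at least 10 UMIs of these markers remained. Whether they are the cells with class II RNA was not tested. In the B lineage cells the class II genes went the other way, at 28950 CPM in GF and 17392 CPM in ff. Genes of the MHC class I list did not differ 2-fold for any of 4 measured members. H2-Q7, a class I gene outside that list, was at 167 CPM in GF against 830 CPM in ff without the cells that carried other types' RNA.

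Other genes lower in GF were spread over more cells. S100a4, a calcium-binding gene of memory lymphocytes, was at 245 CPM from 53 GF cells against 1825 CPM from 23 ff cells (7.44-fold lower; 9.81-fold without the cells that carried other types' RNA). S100a6 was at 284 CPM from 119 GF cells against 2240 CPM from 28 ff cells (7.90-fold lower; 9.84-fold without those cells); in fibroblasts it stood at 3851 and 5286 CPM. Bcl2a1b, a survival gene with near-identical copies between which reads can be split, was at 78.4 CPM from 48 cells against 556 CPM from 15 cells.

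Genes induced early by stimulation or tissue dissociation were lower in GF for 4 of 10 measured members (median log2 ratio -0.81), and for 3 of 10 without the cells that carried other types' RNA (-0.45). Fos was at 425 against 1129 CPM (2.66-fold lower; 1.54-fold without the cells that carried other types' RNA), and Jun at 198 against 472 CPM (2.38-fold lower; 2.62-fold without those cells). The heat shock gene Hspa1a was at 22.7 against 438 CPM in the members and at 970 against 1746 CPM in fibroblasts. The part of handling, or of free RNA from fibroblasts, in these values was not tested.

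The list of the T cell receptor complex and its proximal signalling was at 4455 CPM in GF and 3448 CPM in ff. That was 1.29-fold higher in GF (1.19 to 1.41), or 1.18-fold (1.08 to 1.29) without the cells that carried other types' RNA. The sum includes genes of the rule, which chose the cells, so this fold is only a description. Of the 5 measured genes outside the rule, 2 were at least 2-fold higher (median log2 ratio 0.66). Trbc1 was at 780 CPM in GF and 730 CPM in ff (1.07-fold, 0.891 to 1.29; 1.14-fold lower without the cells that carried other types' RNA). Other genes with similar levels, chosen after their values were seen, included Bcl11b at 160 against 129 CPM. Emb was at 1393 against 1404 CPM and Ifngr1 at 1048 against 994 CPM. Ccl5 was 1.40-fold lower in GF (1.19 to 1.64), at 718 against 1005 CPM. Cd69, an early activation and retention gene, was at 245 against 247 CPM (1.01-fold lower, 0.721 to 1.38).

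**Figure D5:**
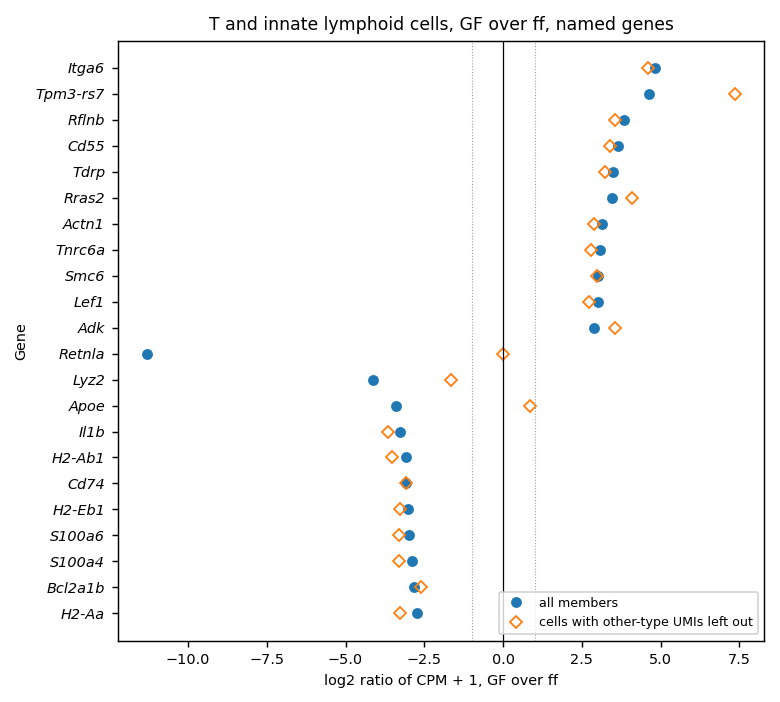
Log2 ratio of GF over ff members, after adding 1 CPM, for genes named by rank, with all members and with the cells that carried other types' RNA left out. Lef1 is at 3.01 with all members and 2.74 without those cells, while Apoe changes from -3.39 to 0.85.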

How the data were processed

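The 2 libraries were made with the 10x Genomics 3' v3.1 kit, per the labels' protocols, and processed with Cell Ranger 6.0.0 on mm10, per the submitters' processing notes. The deposited values are raw UMI counts per Ensembl gene and barcode, with no normalization found in them. Both tables hold 32285 genes, of which 32235 received a symbol from GENCODE vM21 (GRCm38, the assembly of mm10), which also gave the coordinates. The lowest barcode total was 500 UMIs. Strand and the handling of near-identical genes in counting are not given in the sources used here.

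From these counts, cells were filtered and classed by the rules in the text. UMIs were summed per class, divided by the class total and multiplied by 1000000 (CPM); ratios of log2 values were taken after adding 1 CPM, which understates low genes. B lineage cells had at least 2 UMIs of Cd79a, Cd79b and Ms4a1 and none of the T genes. Fibroblasts had at least 20 collagen UMIs and none of Ptprc, the T genes or the B cell genes. Intervals are exact (Poisson, Clopper-Pearson, conditional binomial for folds). A gene absent from a class was set to 3 UMIs over the class for a lower bound. No test was made, because each group has 1 library and cells are not replicates. Members' doublets were sought with Scrublet (scanpy 1.11.5) on the filtered cells and none was removed. For clusters, GF members were scaled to 10000 UMIs and log-transformed, with 1000 variable genes, 20 principal components and 15 neighbours (leidenalg 0.10.2). A cluster was named only from fixed markers and left unnamed where markers of several types led it. Calculations used Python 3.11.15, numpy 2.4.6, scipy 1.17.1 and pandas 2.3.3. Only the ratio step for GF over ff was tested on simulated counts with known folds.

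The rule for named genes took the genes of the cell rule, the 8 leading genes of each cluster, the 15 highest and 8 lowest against B lineage cells, the 12 highest and 12 lowest for GF against ff, and up to 4 members of each list with the most UMIs (all of a list of 6 or fewer); the rankings passed over gene models without a name and mitochondrial, ribosomal, immunoglobulin, haemoglobin and sex-linked genes. Not all of them are printed, some are not reported here, and other genes named were chosen after their values were seen. The members, lists and rules were chosen with earlier results of these data known. Alternatives were other cell thresholds, measurement minima, pseudocounts, thinning and cluster resolutions; leaving out cells with at least 10 UMIs of macrophage, endothelial or erythroid markers was chosen after seeing the data.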

Additional observations from a re-analysis of the deposited data

How the results depend on the processing

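The share of members moved most with the rule on cells. In ff it was 0.157% with no collagen UMI allowed and 0.148% with at most 5% mitochondrial UMIs. In GF it was 2.80% and 2.35% under these, 3.11% with Il7r and Nkg7 left out of the sum and 2.71% with at least 2 Ptprc UMIs. The ff share stayed below the GF share under each alternative tried.

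Counts of genes followed the number measured. Against B lineage cells, a minimum of 50 UMIs gave 630 higher and 537 lower of 5874 genes. For GF against ff, members without a collagen UMI gave 69 and 40 of 586 genes, and a minimum of 50 expected UMIs gave 45 and 35 of 410. Lyz2 and Apoe reversed between GF and ff without collagen UMIs (log2 ratios 1.25 and 4.54) and with a sum of the T genes of at least 3 (1.39 and 2.04), and Apoe reversed without the cells that carried other types' RNA (0.85). Retnla had no UMI left in either library without those cells, so its difference was lost. The remaining genes named by rank kept their sign under each alternative. A pseudocount of 10 CPM moved 22 of the 23 log2 ratios against B lineage cells by more than 1.

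Lineage shares depended on depth. Thinned to 1000 UMIs, they were 9.09% for CD4 and 12.1% for gamma-delta in ff, and 9.42% for CD4, 8.85% for CD8, 5.77% for gamma-delta and 28.7% without CD3 in GF. With 2 UMIs needed, CD4 held 6.06% and gamma-delta 15.2% in ff, and CD4 4.42%, CD8 8.27% and gamma-delta 4.23% in GF. Resolution 0.5 gave 4 clusters. With 33 ff cells, a gene needs about 3 UMIs, or 16.8 CPM, to be told from absence in ff, against 1.94 CPM in GF. No paired analysis was possible because each group had 1 library and no test was made.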
